A study of Mus musculus with 9 samples.

Results

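The data described here are the 18 entries of the microRNA (miRNA) hairpins mir-221 and mir-222 among the 1308 entries of a small RNA sequencing table from airway extracellular vesicles (EVs). The members were taken by name: all entries of either hairpin, both arms and all isomiRs, with no measured value used in the choice. Of the 18, 8 belonged to mir-221 (6 of the 3p arm and 2 of the 5p arm) and 10 to mir-222 (7 of the 3p arm and 3 of the 5p arm).

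The EVs came from the bronchoalveolar lavage fluid (BALF) of female C57BL/6J mice aged 8 to 10 weeks. Mice breathed filtered air (FA), 1 ppm ozone (O3) or 2 ppm O3 for 3 h, and lavage was performed the following day. Each exposure was represented by 3 pools, with BALF from 4 mice in every FA pool and from 3 mice in every O3 pool, so pool size and exposure cannot be told apart between FA and O3. Levels are in RPMMM, the reads of an entry scaled to a common total of miRNA-mapped reads per pool. Entries counted as differentially expressed (DE) where they changed at least 2-fold with a limma adjusted p below 0.05, among the 461 whose mean over the pools exceeded 50 RPMMM.

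An miRNA hairpin is cut into a duplex, and the strand loaded into an Argonaute protein pairs with target mRNAs mainly through its seed, bases 2 to 8 from the 5′ end. miR-221 and miR-222 are encoded next to each other, are regarded as products of a shared primary transcript, and have the same 3p seed. They are known as regulators of the cell cycle inhibitor p27Kip1 and of the receptor c-Kit, and are abundant in endothelial and smooth muscle cells. The 3p strand is the guide that accumulates, and the 5p strand is the less abundant partner.

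The mature sequences (RefSeq, table of the GRCm38.p6 build) are shown because the shared seed and the different remainder define the pair. The seed is in capitals.
miR-221-3p: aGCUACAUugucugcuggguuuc
miR-222-3p: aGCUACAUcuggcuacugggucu
miR-221-5p: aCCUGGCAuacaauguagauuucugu

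The 3p miRNAs were identical over the first 8 bases, and over their whole length 11 of 23 positions matched without gaps. Of 1679 mature mouse miRNAs in the RefSeq table, 3 had this seed, namely these 2 and miR-1928, which was not among the entries. miR-221-5p shared its seed with no other mature miRNA of that table. miR-222-5p has no mature sequence there, so its sequence and seed are not given.

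In the mm9 build, Mir221 lies at chrX:18723420-18723514 and Mir222 at chrX:18724019-18724097, both on the minus strand and 504 bases apart. miR-221-3p itself occupies chrX:18723433-18723455, miR-221-5p chrX:18723470-18723495 and miR-222-3p chrX:18724027-18724049. Apart from these hairpins, no annotated gene overlapped the 678 bases that they span (GENCODE vM1). The nearest annotated gene was the lincRNA Gm14636, on the same strand and 10009 bases away at higher coordinates. The hairpins are therefore intergenic in this annotation.

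The depth estimated from the step between low values was 535540 to 773272 miRNA reads in the FA pools, 555105 to 860958 in the 1 ppm pools and 281548 to 300905 in the 2 ppm pools. The lowest value above 0 in a pool corresponded to about 10.0 to 10.5 reads, and a listed 0 therefore covers values up to that size. All 86 of the members' 86 values above 0 lay within 0.1 read of a whole number, and miR-221-3p rested on 435 to 3223 reads and miR-222-3p on 797 to 4757. The 2 ppm pools also differed in composition: entries of mir-2137 held a mean of 19.5% of their total, against 4.09% at 1 ppm and 0.266% in FA, and hairpins without a match in the reference tables held 25.7%, 3.99% and 0.361%. RPMMM values share a fixed total, so calls that turn under another scaling of the pools are given with it.

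In FA the 3p miRNAs were present at similar levels, and after O3 they were not. As deposited, miR-221-3p fell by 1.10 on the log2 scale from FA to 2 ppm O3, and miR-222-3p had its highest mean at 1 ppm without being called DE in any comparison. Both calls turned with the scaling: with totals lacking mir-2137 and unmatched hairpins, miR-221-3p was at -0.24 and not DE at 2 ppm, and miR-222-3p was at 1.01 and DE (limma adjusted p = 0.306 and 0.00239). Over 24 settings of the processing, the 2 ppm change of miR-221-3p was called in 20 and that of miR-222-3p in 1. The ratio of miR-222-3p to miR-221-3p was 2.43-fold that of FA at 1 ppm and 2.39-fold at 2 ppm.

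miR-221-3p was at 3162, 4168 and 4205 RPMMM in the FA pools, at 2488, 2232 and 2885 at 1 ppm, and at 1545, 1503 and 2405 at 2 ppm. Every O3 pool was below every FA pool, whereas the 1 and 2 ppm pools overlapped, with pool 3 the highest at either concentration. The means were 3845 ± 592, 2535 ± 329 and 1818 ± 509 (SD, n = 3 each). The trend was tested by comparing every pool with every pool of another exposure: of these 27 pairs, 1 had the higher level at the higher concentration (exact permutation test of trend, two-sided, p = 0.00357, Benjamini-Hochberg adjusted 0.0214 over 6 trends). With median-of-ratios scaling 7 pairs rose (exact, p = 0.189), and with totals lacking mir-2137 and unmatched hairpins 8 (exact, p = 0.277). Totals lacking only mir-2137 gave 2 rising pairs (exact, p = 0.00952, not adjusted).

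By limma, miR-221-3p changed by -0.60 (log2, SE 0.204, adjusted p = 0.0840) at 1 ppm, which was not DE. At 2 ppm the change was -1.10 (SE 0.204, adjusted p = 0.00136), which was DE and close to the 2-fold limit; without 2 ppm pool 2 it was -0.98, under that limit. Between 1 and 2 ppm it was -0.51 (limma adjusted p = 0.0695). The median change of all 461 entries was -0.08 at 1 ppm, -0.83 at 2 ppm and -0.69 between the concentrations, so relative to that median miR-221-3p was at -0.51, -0.28 and 0.18.

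miR-222-3p was at 3337, 3419 and 3630 RPMMM in the FA pools, at 5814, 5341 and 5525 at 1 ppm, and at 3662, 2754 and 5630 at 2 ppm. All 1 ppm pools were above all FA pools, while the 2 ppm pools spread from below the lowest FA pool to within the range of the 1 ppm pools. The means were 3462 ± 151, 5560 ± 238 and 4015 ± 1470 (SD, n = 3 each). As deposited, 17 of 27 pairs rose (exact permutation test of trend, two-sided, p = 0.519, adjusted 0.623 over 6 trends). With median-of-ratios scaling, and likewise with totals lacking mir-2137 and unmatched hairpins, 24 pairs rose (exact, p = 0.0214, not adjusted). Totals lacking only mir-2137 gave 20 rising pairs (exact, p = 0.189, not adjusted).

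The limma change of miR-222-3p was 0.68 (log2, SE 0.215, adjusted p = 0.0609) at 1 ppm, 0.15 (SE 0.215, adjusted p = 0.552) at 2 ppm and -0.53 (adjusted p = 0.0700) between them, and none was DE. Relative to the median of all entries these changes were 0.77, 0.98 and 0.15. Without pool 3 at 2 ppm, the highest of that group, the 2 ppm change was -0.12 in place of 0.15.

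**Figure D1:**
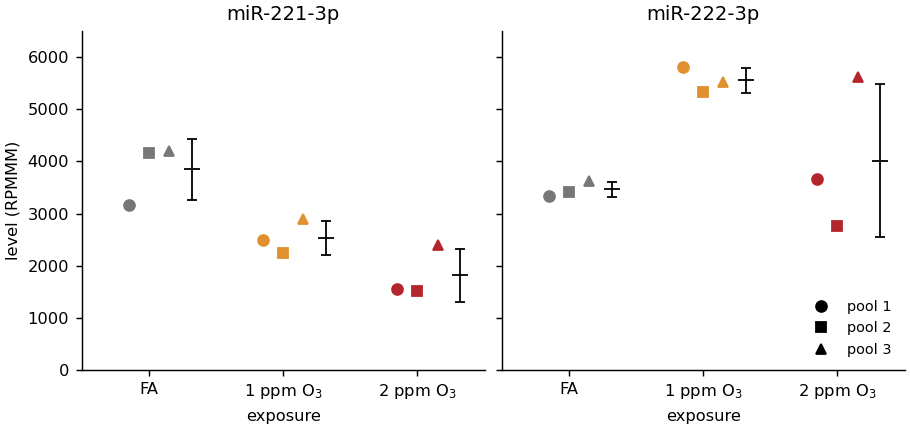
Level of miR-221-3p (left) and miR-222-3p (right) in RPMMM for each of the 9 pools by exposure, with the mean and SD of 3 pools as a black bar beside them. The O3 pools of miR-221-3p (1503 to 2885) lie below its FA pools (3162 to 4205), and the 2 ppm pools of miR-222-3p spread from 2754 to 5630.

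A ratio of entries from the same pool does not change when that pool is scaled by a common factor, which quantile normalization does not do. miR-222-3p divided by miR-221-3p was 1.06, 0.820 and 0.863 in the FA pools, 2.34, 2.39 and 1.92 at 1 ppm, and 2.37, 1.83 and 2.34 at 2 ppm. All 6 O3 pools were above the 3 FA pools, and the O3 concentrations overlapped. The mean ratios were 0.913 ± 0.125, 2.22 ± 0.261 and 2.18 ± 0.303 (SD, n = 3 each).

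On the log2 scale the ratio was higher than in FA by 1.28 at 1 ppm and by 1.26 at 2 ppm. For each of these the exact permutation test (two-sided) gave p = 0.1, the smallest that 3 against 3 pools allow, and 0.6 after adjustment over 12 comparisons. The concentrations differed by -0.03, or 0.983-fold (exact permutation test, p = 0.7, adjusted 0.84), and the trend over the 9 pools had 22 of 27 pairs rising (exact, two-sided, p = 0.0738, adjusted 0.221).

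Expressed in reads, miR-222-3p made up 51.3, 45.1 and 46.3% of the reads of both 3p miRNAs in the FA pools, 70.0, 70.5 and 65.7% at 1 ppm, and 70.3, 64.7 and 70.1% at 2 ppm. The 95% Wilson intervals of the single pools ran from 43.8 to 52.7% in FA, from 64.6 to 71.9% at 1 ppm and from 62.0 to 72.5% at 2 ppm, and cover counting error only. The intervals of the FA pools did not reach those of the O3 pools, although the 2 ppm pools held only 1232 to 2262 such reads.

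**Figure D2:**
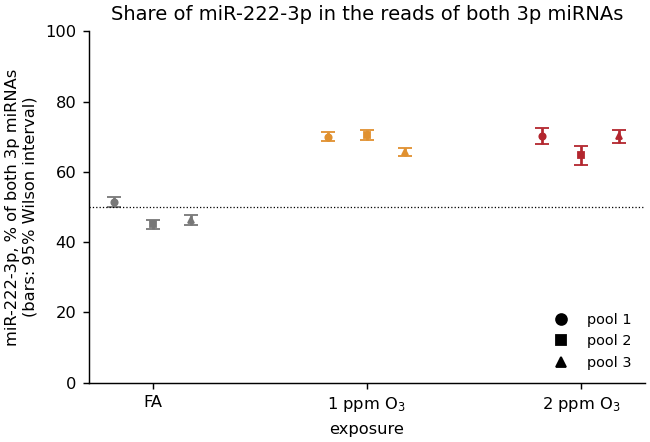
Share of miR-222-3p in the reads of both 3p miRNAs, in percent, for each of the 9 pools by exposure, with 95% Wilson intervals as bars and 50% as a dotted line. The FA pools lie at 45.1 to 51.3% and the O3 pools at 64.7 to 70.5%.

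The summed level of both 3p miRNAs was 7307 ± 711 RPMMM in FA, 8095 ± 455 at 1 ppm and 5833 ± 1965 at 2 ppm (SD, n = 3 each). The FA pools (6499 to 7835) and the 1 ppm pools (7573 to 8410) overlapped in this sum, and the 2 ppm pools ran from 4257 to 8034. miR-221-3p was entry 46 of 427 unshifted entries by mean level in FA, 60 at 1 ppm and 58 at 2 ppm, whereas miR-222-3p was at places 48, 39 and 39. In FA their order was not resolved from its neighbours: miR-92b-3p stood between them at 3490 ± 254, let-7e-5p above at 4114 ± 16.0 and miR-34c-3p below at 3431 ± 568 (RPMMM, SD, n = 3 each). The O3 places were not resolved either. At 2 ppm miR-222-3p (4015 ± 1470) stood between miR-30b-5p at 4073 ± 785 and miR-423-3p at 3876 ± 440. There miR-221-3p (1818 ± 509) stood just above miR-140-3p at 1769 ± 121.

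The size of the change of each 3p miRNA between FA and 2 ppm, and for miR-222-3p its sign, depended on how pools were scaled. miR-221-3p was below 0 in each of the 5 scalings. With median-of-ratios scaling, miR-221-3p was at -0.41 (limma adjusted p = 0.0964) and miR-222-3p at 0.85 (adjusted p = 0.00466, under 2-fold) at 2 ppm. With totals that left out mir-2137 together with the unmatched hairpins, the changes were -0.24 (limma adjusted p = 0.306) and 1.01 (adjusted p = 0.00239, DE). miR-222-3p at 1 ppm had a limma adjusted p of 0.0174 and 0.0189 under these scalings, with changes of 0.77 and 0.80 that stayed under 2-fold. With quantile normalization miR-222-3p was at -0.11 at 2 ppm. Totals lacking only mir-2137 gave -0.79 for miR-221-3p and 0.46 for miR-222-3p at 2 ppm (limma adjusted p = 0.00936 and 0.103), neither of them DE.

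**Figure D3:**
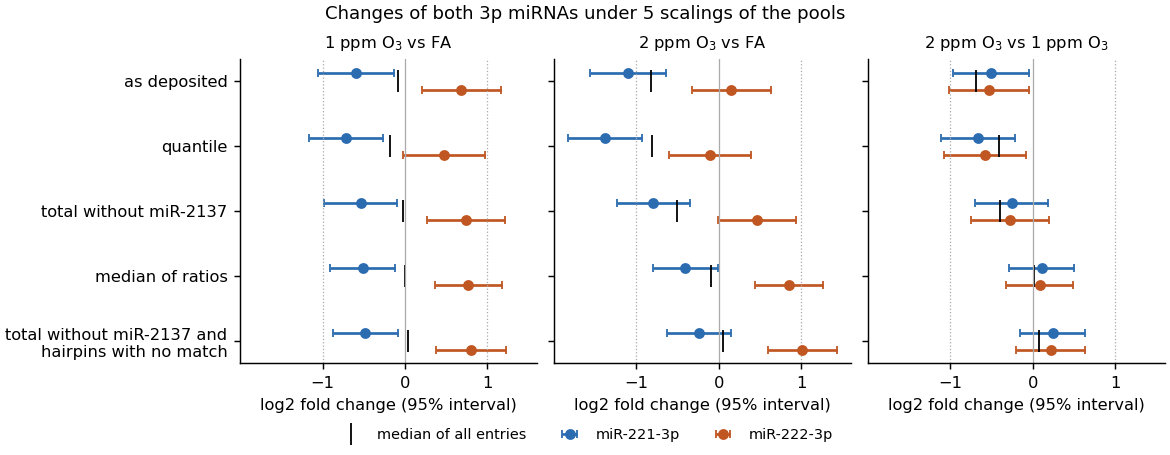
Log2 fold change of miR-221-3p (blue) and miR-222-3p (orange) with 95% intervals from limma, for 3 comparisons and 5 scalings of the pools; the black tick is the median of all tested entries and dotted lines mark 2-fold. Against FA, miR-221-3p lies left of miR-222-3p in every scaling; at 2 ppm as deposited the values are -1.10 and 0.15, and with totals lacking mir-2137 and unmatched hairpins -0.24 and 1.01.

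Of the 18 entries, 8 passed the filter on the mean, 3 of mir-221 and 5 of mir-222. The other 10, all shifted isomiRs, had means of 1.94 to 17.2 RPMMM and were above 0 in 1 to 4 pools. From FA to 1 ppm, 1 of the 8 was DE and higher, against 13.2% of all tested entries. From FA to 2 ppm, 3 of 8 were DE, 1 higher and 2 lower, against 43.6% of all tested entries, of which 66 were higher and 135 lower. Under median-of-ratios scaling that split was 2 higher and 0 lower among the 8, and 87 higher and 34 lower among all entries. Between 1 and 2 ppm, 1 of 8 was DE and lower, against 33.6% of all tested entries. As deposited, the share of members called did not exceed that of all tested entries in these 3 comparisons. At 2 ppm the other scalings called 3 of 8 members against 126 of 498 entries with totals lacking mir-2137 and unmatched hairpins, and 3 of 8 against 173 of 477 with totals lacking mir-2137. Quantile normalization called 4 of 8 against 198 of 461, and median-of-ratios scaling 2 of 8 against 121 of 458. In each of these, 1 member more or fewer would change which share is larger, so no difference is read from them. The members' median changes were 1.28, 0.21 and -0.55. These depend on the filter, which used the mean over all pools. In FA the means of mir-222-5p_-_1, mir-222-3p_+_2 and miR-221-5p were below 50 RPMMM (36.1, 40.6 and 38.8), and their O3 pools carried them past it. Their 1 ppm changes of 4.19, 2.08 and 1.72 all lay above the median of 1.28. As deposited, mir-222-5p_-_1 was the member called higher at 2 ppm. A fit of FA and 2 ppm alone tested 6 members and called 0 higher.

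**Figure D4:**
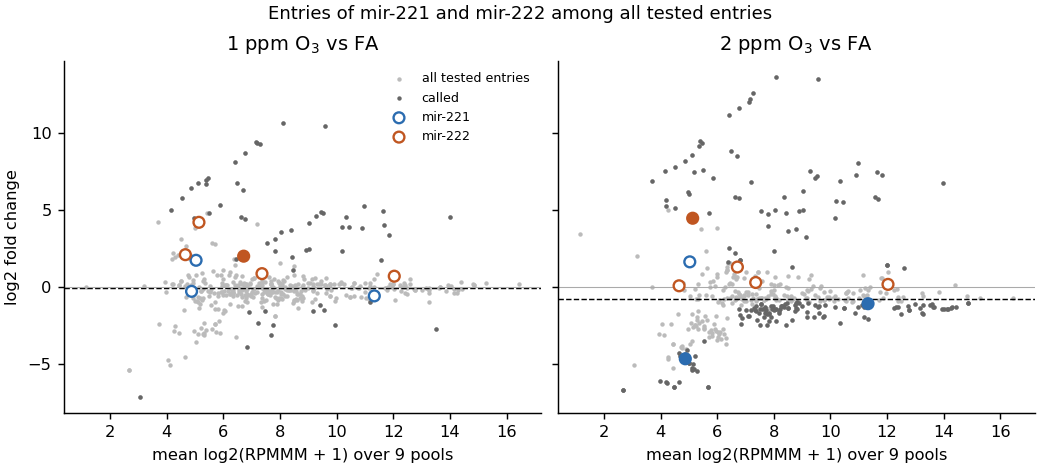
Log2 fold change against mean log2(RPMMM + 1) over the 9 pools for the 461 tested entries at 1 ppm (left) and 2 ppm (right) versus FA, with called entries in dark grey, entries of mir-221 in blue and of mir-222 in orange, filled where DE; the dashed line is the median of all entries. At 2 ppm miR-221-3p (-1.10) lies near the median of -0.83 and miR-222-3p (0.15) above it.

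IsomiRs are sequence variants of an miRNA. Those listed here have a 5′ end shifted from the annotated start, which moves the seed, and a name such as _+_1 gives the size of the shift. The sources used here do not state which direction the sign stands for.

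The most abundant isomiR of the mir-222 3p arm, mir-222-3p_+_1, was at 51.9, 25.9 and 84.0 RPMMM in FA, at 216, 146 and 233 at 1 ppm, and at 106, 149 and 107 at 2 ppm. All O3 pools were above all FA pools. It rose by 1.98 (log2, SE 0.512, limma adjusted p = 0.0273, DE) at 1 ppm, a call lost without FA pool 2 (1.54, adjusted p = 0.0681), 1 ppm pool 1 (1.91, adjusted p = 0.0998) or 1 ppm pool 3 (1.85, adjusted p = 0.0787). At 2 ppm the change was 1.28 (adjusted p = 0.0594), and between the concentrations -0.71 (adjusted p = 0.279), neither of them DE by limma. The 2 ppm change was DE under all 4 other scalings, at 1.52 to 2.14 (limma adjusted p = 0.0118 to 0.0346), and in 8 of 21 settings in all.

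The corresponding isomiR of the mir-221 3p arm, mir-221-3p_+_1, was at 152, 105 and 48.6 RPMMM in FA, at 88.2, 75.7 and 61.6 at 1 ppm, and at 0, 0 and 46.2 at 2 ppm. The FA and 1 ppm pools overlapped, and the 2 ppm pools were below them. Its limma change was -0.30 (adjusted p = 0.953) at 1 ppm, -4.68 (SE 1.46, adjusted p = 0.0224, DE) at 2 ppm and -4.38 (adjusted p = 0.0383, DE) between the concentrations. The size of the last 2 values depends on the 2 pools listed at 0: with all values below 40 RPMMM, about the lowest that a 2 ppm pool lists, set to 40, they were -1.11 and -0.81. The 2 ppm call was lost without FA pool 1 or 2 or 2 ppm pool 1 or 2 (limma adjusted p = 0.0615 to 0.0754), with median-of-ratios scaling (0.0558), with totals lacking mir-2137 and unmatched hairpins (0.0628) and in a fit of FA and 2 ppm alone (0.0577). The call between the concentrations was lost without any single pool other than 2 ppm pool 3 (limma adjusted p = 0.0519 to 0.103), and under each other scaling but quantile normalization (0.0526 to 0.0945).

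Across the whole 3p arm, shifted isomiRs made up 5.68, 2.45 and 3.39% of miR-221-3p in FA, 3.42, 3.28 and 5.48% at 1 ppm, and 0, 0 and 3.56% at 2 ppm. For mir-222 the shares were 7.71, 2.47 and 2.26%, then 5.18, 4.82 and 6.62%, then 3.84, 6.46 and 3.53%. The 0s came from 2 ppm pools 1 and 2, which held 465 and 435 reads of miR-221-3p. An isomiR under about 10 reads is listed at 0 there, so depth limits these shares and their trend tests. The exposures overlapped for either hairpin, and the trend test did not pass its threshold, with 9 of 27 pairs rising for mir-221 (exact permutation test, two-sided, p = 0.342, adjusted 0.582) and 14 of 27 for mir-222 (exact, p = 1, adjusted 1). The last tested isomiR of this arm, mir-222-3p_+_2, ranged from 0 to 101 RPMMM and was not called in any comparison.

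The 5p strands were a small part of either hairpin. Among the mir-222 entries, no 5p entry was listed as unshifted: all 3 were named as shifted, by 1, 2 and 3 bases, while the 5p arm of mir-221 was mostly unshifted. The start from which the mir-222 5p shifts were counted could not be checked, since RefSeq gives no miR-222-5p. The 5p arm held 5.62, 2.87 and 5.06% of mir-222 in FA, 5.54, 7.18 and 4.39% at 1 ppm, and 8.10, 4.05 and 6.81% at 2 ppm, ranges that overlapped (18 of 27 pairs rising, exact permutation test, two-sided, p = 0.388, adjusted 0.582). It held 1.82, 0 and 1.73% of mir-221 in FA, 1.59, 6.02 and 0.605% at 1 ppm, and 2.31, 2.47 and 2.64% at 2 ppm, which was not tested, since 5p shares were tested only where all pools were above 0.

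mir-222-5p_-_3 was at 215, 103 and 89.6 RPMMM in FA, 316, 214 and 174 at 1 ppm and 196, 58.7 and 305 at 2 ppm. These groups overlapped, and the limma changes of 0.85, 0.27 and -0.58 were not DE (adjusted p = 0.480, 0.720 and 0.457). mir-222-5p_-_1 was at 0, 0 and 108 RPMMM in FA, 43.3, 196 and 74.3 at 1 ppm and 140, 65.7 and 121 at 2 ppm. Its change at 2 ppm was 4.45 (SE 1.69, limma adjusted p = 0.0498, DE), and this call was kept in 6 of 21 settings and, of the 9 fits that left out a pool, only in that without FA pool 3; with values below 40 RPMMM set to 40 the change was 0.88. At 1 ppm it was 4.19 (limma adjusted p = 0.148), also against an FA group with 2 pools at 0.

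miR-221-5p, the less abundant partner of the guide strand, was at 62.2, 0 and 54.2 RPMMM in FA, 41.6, 148 and 18.6 at 1 ppm and 36.6, 38.0 and 67.5 at 2 ppm. Its limma changes of 1.72, 1.62 and -0.10 had adjusted p of 0.593, 0.380 and 0.952. The 95% intervals of these changes were wide, from -1.83 to 5.27 at 1 ppm and from -1.93 to 5.17 at 2 ppm, and at most 82 reads stood behind a value.

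**Figure D5:**
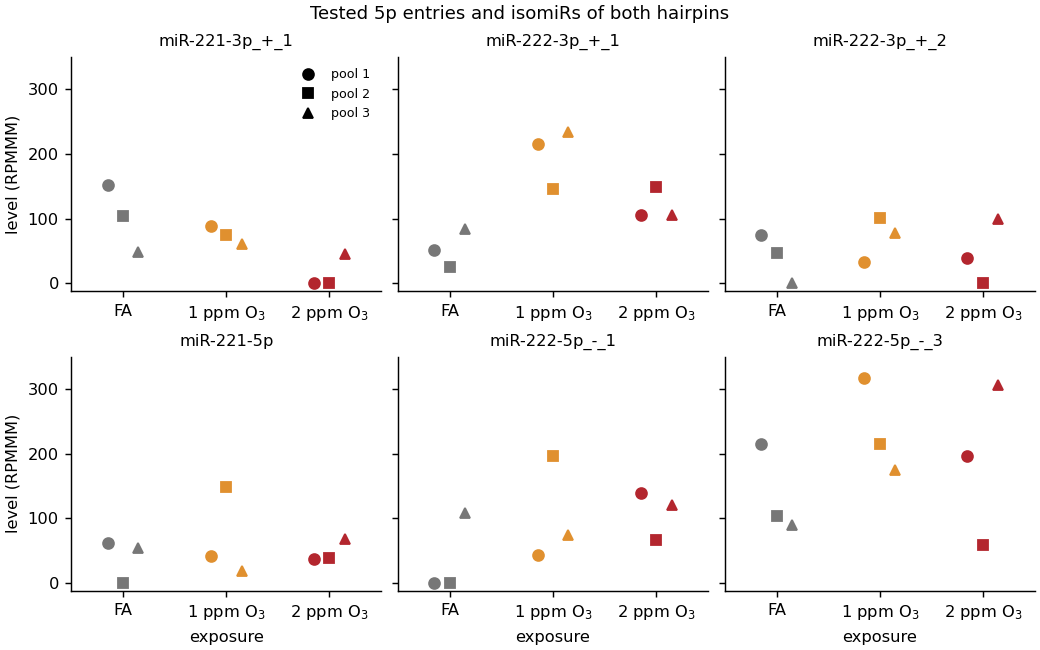
Level in RPMMM of the 6 tested entries other than the unshifted 3p miRNAs, 1 panel each, for the 9 pools by exposure; the axis is shared. All O3 pools of mir-222-3p_+_1 (106 to 233) lie above its FA pools (25.9 to 84.0), while mir-221-3p_+_1 is at 0 in 2 of 3 pools at 2 ppm.

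Across the 9 pools, the levels of miR-221-3p and miR-222-3p had a Pearson correlation of 0.0535 on the log2 scale, a description of pools that share exposures and a scaling. Each was compared with the 235 other unshifted entries that passed the filter. Of those from other hairpins, the most like miR-221-3p were let-7a-1-3p and let-7c-2-3p (0.939 for either, with equal values in the table), miR-672-5p (0.934), miR-1298-5p (0.918) and miR-26a-2-3p (0.915). Those most like miR-222-3p were miR-23a-3p (0.953), miR-23a-5p (0.864), miR-125b-1-3p (0.661), miR-186-5p (0.621) and miR-16-2-5p (0.603). The entries followed by the cluster members were thus different ones. All 5 entries named for miR-221-3p had lower means at 2 ppm than in FA, such as miR-672-5p at 414 against 1290 RPMMM, whereas miR-23a-5p had its highest mean at 1 ppm, 4035 RPMMM against 2336 in FA and 2396 at 2 ppm.

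EVs in BALF come from several cell types, and fewer EVs of a source and less miRNA per EV cannot be told apart. The counts of called marker entries below stand beside 13.2% of all tested entries called at 1 ppm and 43.6% at 2 ppm. They and the sums are given for the values as deposited only. Calls at 2 ppm depend on the scaling: 135 of 461 tested entries were lower as deposited, and 34 of 458 with median-of-ratios scaling. Of 5 epithelial entries of the miR-200 family, 0 were DE at 1 ppm and 3 were lower at 2 ppm, and their summed level was 57658 to 61272 RPMMM in FA, 46818 to 51843 at 1 ppm and 23931 to 26964 at 2 ppm. Of 5 vascular entries (miR-126, miR-143 and miR-145), 1 was higher at 1 ppm and 2 at 2 ppm, with sums of 4472 to 11267, 5862 to 8386 and 5779 to 5903. The called ones were all arms of miR-126. At 2 ppm miR-143-3p, miR-145-3p and miR-145-5p were at -0.13, -0.55 and -0.80 and not DE. Of 6 leukocyte entries 4 were tested and 2 were lower at 2 ppm, with sums of 1512 to 2066, 1502 to 2511 and 1109 to 1279. The lower ones were miR-142-3p (-5.44) and miR-342-3p (-1.06), whereas miR-223-3p and miR-142-5p were at -0.08 and 0.16 and not DE. Of 5 listed erythroid entries 2 were tested and 1 was lower at 1 ppm, with sums of 801 to 1757, 150 to 311 and 158 to 948. No marker was at 0 in all pools, and the part of these cell types in the levels of miR-221-3p and miR-222-3p was not tested.

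Of 57 other listed entries from hairpins on the X chromosome, 29 were tested. At 1 ppm 2 were higher and 0 lower, at 2 ppm 1 was higher and 16 lower, and between the concentrations 1 was higher and 15 lower; the entry higher at 2 ppm in both comparisons was miR-2137. Of all tested entries, 10.4% were higher and 2.82% lower at 1 ppm, 14.3% and 29.3% at 2 ppm, and 11.3% and 22.3% between the concentrations. Their median changes were -0.05, -1.37 and -1.28 (log2), beside -0.08, -0.83 and -0.69 for all entries. At 2 ppm the change of miR-221-3p lay between these medians and that of miR-222-3p above both. The counts and medians of the X-linked entries are given as deposited only. With median-of-ratios scaling the median of all tested entries at 2 ppm was -0.09, and 87 were higher and 34 lower.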

How the data were processed

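The authors trimmed the reads, aligned them to mm9 and counted miRNAs together with isomiRs in miRquant 2.0. They deposited RPMMM values, an RPM unit scaled to the miRNA-mapped reads of each pool, 1 column per pool. The 9 pools (3 per exposure) were grouped by the labelled exposure. Values were tested as log2(RPMMM + 1) with limma 3.58.1 (R 4.3.3), variance trend on, 1 mean per exposure, over entries with a mean above 50 RPMMM, with Benjamini-Hochberg adjustment. Ratios, shares and trends had exact permutation tests (scipy 1.17.1; 3 against 3 pools cannot go below 0.1, the trend not below 0.00119). The study used the same fold, p and level thresholds. Reads per pool were estimated from the step between low values; since only 70.6 to 83.2% of low values lay on whole steps, no count test was run. P-values measure the spread between pools. The study lists a single exposure run at each O3 concentration, so spread between runs is not measured. Alternatives were pseudocount, filter, scaling, isomiR summing, copies counted once, paired exposures only and leaving out each pool. All entries of both hairpins are reported; the other entries named are those with the highest correlation with either 3p miRNA and its neighbours in rank in FA. The members were taken by name without use of measured values, but members and lists were set when earlier results of these data were known. The scripts were tested on simulated data.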

Additional observations from a re-analysis of the deposited data

How the results depend on the processing

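No paired analysis was possible because the labels give the exposures no shared replicate numbers. The ratio of miR-222-3p to miR-221-3p kept its direction against FA in all 7 alternatives, at 1.21 to 1.39 (log2) at 1 ppm and 1.18 to 1.38 at 2 ppm. With isomiRs summed its trend had 23 of 27 pairs rising (exact permutation test, p = 0.0417). Quantile normalization was not among the alternatives for the ratio. It put miR-221-3p at -0.72 and miR-222-3p at 0.47 at 1 ppm, and at -1.38 and -0.11 at 2 ppm. The 2 ppm change of miR-221-3p was called in 20 of 24 settings. It lost the call under median-of-ratios scaling (-0.41), with totals lacking mir-2137 (-0.79), with totals lacking also the unmatched hairpins (both; -0.24), and without 2 ppm pool 2 (-0.98); leaving out single pools gave -1.32 to -0.98. The 2 ppm change of miR-222-3p was called in 1 of 24 settings, with totals lacking both (1.01). That change was -0.11 with quantile normalization, and -0.12 to 0.39 with single pools left out. Between 1 and 2 ppm, median-of-ratios scaling turned miR-221-3p to 0.11 and miR-222-3p to 0.082, and the totals lacking both to 0.24 and 0.22. Under these scalings the rising pairs of miR-221-3p were 7 and 8 of 27 (exact, p = 0.189 and 0.277) and those of miR-222-3p 24 and 24, with p = 0.0214 for the latter. Totals lacking only mir-2137 gave 2 pairs for miR-221-3p and 20 for miR-222-3p (exact, p = 0.00952 and 0.189). These scalings raise the 2 ppm pools by construction; which is right was not tested.

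The number of DE members at 1 ppm (1) was 0 with a filter of 200 RPMMM, no filter, each mature miRNA once or arms summed, and 0 to 2 with single pools left out (0 without FA pool 2 or 1 ppm pool 1 or 3, 2 without FA pool 3). At 2 ppm (3) it was 1 with the filter of 200, each mature miRNA once, arms summed or 2 exposures only. It was 2 with a filter of 10 RPMMM, no filter, median-of-ratios scaling or the robust option of limma, and 4 with quantile normalization. With single pools left out it was 0 to 4 (0 without 2 ppm pool 2, 1 without FA pool 1 or 2 or 2 ppm pool 1). Between the concentrations (1) it was 0 with the filter of 200, median-of-ratios scaling, either reduced total, the floor of 40 RPMMM (chosen after seeing the data), each mature miRNA once, arms summed or 2 exposures only, and 0 to 1 with single pools left out (1 only without 2 ppm pool 3). mir-222-3p_+_1 was called in 17 of 21 settings at 1 ppm and 8 of 21 at 2 ppm, and mir-221-3p_+_1 in 14 of 21 at 2 ppm and 8 of 20 between the concentrations.

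Sign changes of entries that were not called were found with single pools left out for mir-221-3p_+_1 at 1 ppm (-0.75 to 0.058), miR-221-5p at 1 ppm (-0.24 to 2.75), at 2 ppm (-0.35 to 2.65) and between concentrations (-0.78 to 0.052), mir-222-3p_+_2 at 2 ppm (-1.91 to 2.06), mir-222-5p_-_3 at 2 ppm (-0.23 to 0.95) and between concentrations (-1.08 to 0.10), and mir-222-5p_-_1 between concentrations (-0.22 to 0.86). miR-221-5p at 2 ppm was -0.10 with the floor. Between concentrations miR-221-5p was 0.50 with median-of-ratios scaling, 0.15 and 0.63 with the reduced totals and 1.05 with quantile normalization, mir-222-3p_+_1 was 0.038 with totals lacking both, and mir-222-5p_-_3 was 0.033 and 0.17. The differences in isomiR and 5p shares moved by less than the pooled SD of the groups compared, but with single pools left out the sign changed for mir-221 isomiRs at 1 ppm (-0.49 to 1.14 percentage points), mir-222 isomiRs at 2 ppm (-0.48 to 2.24), the mir-221 5p arm at 1 ppm (-0.086 to 2.62) and between concentrations (-1.33 to 1.37), and the mir-222 5p arm between concentrations (-0.27 to 1.75); an unshifted share could not be given for the 5p arm of mir-222, which has no such entry. Depth limits the less abundant entries at 2 ppm, where the lowest value above 0 in a pool was 34.3 to 37.3 RPMMM.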

Other observations

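The isomiR shifted by 1 made up 1.43, 0.738 and 2.26% of the mir-222 3p arm in the FA pools, 3.53, 2.60 and 3.95% at 1 ppm and 2.79, 5.05 and 1.83% at 2 ppm. In the mir-221 3p arm the share of the same shift was 4.52, 2.45 and 1.12% in FA, 3.42, 3.28 and 2.02% at 1 ppm and 0, 0 and 1.85% at 2 ppm. These shares were taken up after the data were seen; 21 of 27 pairs rose with concentration for mir-222 and 6 of 27 for mir-221 (exact permutation test of trend, two-sided, p = 0.123 and 0.105, not adjusted). For mir-222 all 1 ppm pools were above all FA pools, and the 2 ppm pools overlapped both; for mir-221 the FA and O3 pools overlapped. Depth limits these shares at 2 ppm, as it does those of the whole arm.

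Among the rarest entries, FA pool 1 listed mir-222-3p_-_1 at 92.1 RPMMM and was the pool with the highest share of shifted reads in either 3p arm, 5.68% for mir-221 and 7.71% for mir-222. mir-222-5p_-_3 held all of the 5p reads of mir-222 in FA pools 1 and 2 and 45.3 to 88.0% in the other pools. The counts behind these shares are small, and they are given as values.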
